A study of Mus musculus with 32 samples.

Results

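The IL-10 receptor and STAT3 axis was followed here as 9 genes chosen by symbol, and all 9 (Il10, Il10ra, Il10rb, Jak1, Tyk2, Stat3, Socs3, Bcl3 and Nfil3) were found among the 24148 symbols shared by both count tables. Monocytes had been transferred into mice whose gut macrophages had been ablated with diphtheria toxin and their progeny sequenced by a derivation of MARS-seq, a method that reads the 3' ends of transcripts. The graft (3 libraries) was compared with colonic macrophages of days 4 (3), 8 (3) and 12 (4) and with ileal macrophages of days 4, 8 and 12 (4 each), all from CD11c-DTR recipients, and with 6 libraries of colonic macrophages from CX3CR1-DTR recipients (day 14). A further colon day 8 library, replicate 1, enters only where it is named.

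All mice were of the C57BL/6J strain. The age of the recipients is stated for their irradiation alone, and ages at sorting are not given in the sources used here. The CD11c-DTR recipients were chimeras with marrow of mice with the transgene Tg[Itgax-DTR/GFP]57Lan, in which the toxin receptor is driven by the Itgax promoter, and those of the second experiment carried Cx3cr1-DTR. Recipients of both kinds received the toxin every other day at 9 to 18 ng per g of bodyweight, while the graft was untreated. The labels call the graft blood, with CD45, CD11b, CD115 and Ly6C as its selection markers, and print the recipients' transgene for it, whereas the methods describe marrow monocytes of Cx3cr1 GFP/+ donors. For engrafted cells the labels give a gate of living CD45+ CD11b+ CD64+ MHCII+ cells without Ly6C, and the paper adds the donor markers CD45.1 and CX3CR1-GFP. Nothing states that libraries of a group came from separate mice, so the p-values measure the spread between these libraries, which may be technical. Titles of colon and ileum libraries share dates, and whether such libraries came from the same mice is not stated. The main tests between the segments treat them as unpaired. The recipient strain, the day and the sequencing run of the CX3CR1-DTR libraries cannot be told apart. The paper lists fewer repeats for that group than the 6 libraries labelled so, and all 6 were kept.

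IL-10 is a cytokine that restrains inflammatory gene expression in macrophages, and gut macrophages that cannot sense it drive colitis. It binds a receptor of the ligand-binding chain IL-10Rα, encoded by Il10ra and largely restricted to hematopoietic cells, and the widely expressed chain IL-10Rβ, encoded by Il10rb. The kinases JAK1 and TYK2 sit on these chains and phosphorylate STAT3, which induces, among others, SOCS3, BCL3 and NFIL3. SOCS3 restrains signalling of IL-6 family receptors and leaves that of the IL-10 receptor largely intact.

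Between 591817 and 5228664 reads per CD11c-DTR or graft library and between 1223772 and 4218027 per CX3CR1-DTR library were counted on genes. In these sorted cells, 12 intestinal epithelium markers, which summed to 52.2 to 85.8 reads per 10000000 reads on genes in the graft, summed to 174259 to 259939 in CD11c-DTR colon, 32166 to 226810 in ileum and 193839 to 251714 in CX3CR1-DTR colon. The sum of 10 pan-leukocyte genes was 143603 to 153413 in the graft, 3366 to 14515 in CD11c-DTR colon, 10587 to 68553 in ileum and 2385 to 7019 in CX3CR1-DTR colon. All 12 and all 10 genes were above the floor of 3 counts in at least 1 library of every engrafted group. The macrophage list summed to 7108 to 43608 in CD11c-DTR colon and 18889 to 214147 in ileum, against 94612 to 125551 in the graft. Ileal libraries also held more reads of T cell markers (72.2 to 1270, against 47.1 to 117.8 in CD11c-DTR colon). The same held for B cell markers (93.8 to 2558 in ileum, against 47.3 to 253.7 in CD11c-DTR colon). In such bulk samples, fewer cells of a type and less RNA per cell cannot be told apart, and the part of these other cells in the results on the members was not tested.

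Of the members, Socs3 rose in every engrafted group. Tyk2 and Nfil3 fell in all of them. Il10ra fell in colon, and in ileum its lower values did not pass the test, although some alternative fits called them. Levels below are reads per 10000000 mapped reads, and fold changes are log2 values with their standard error from edgeR's quasi-likelihood test over 11842 genes, adjusted by Benjamini-Hochberg, with the call set at an adjusted p below 0.05. From the graft to colon, 6, 6 and 7 of 9 members were called on days 4, 8 and 12, where 60.4%, 59.1% and 62.6% of all genes tested were. In ileum 4, 4 and 6 were called, against 56.7%, 53.9% and 55.9% of all genes, so the members were called about as often as genes in general. Their median log2 fold change was -0.56 in colon and -0.44 in ileum on day 4, where that of all genes was 0.21 and 0.23. The scaling matters to small changes, since with the library totals in place of TMM the median of all genes moved to -0.12 and -0.20. The share of higher genes among those called moved from 59.5% to 48.4% in colon and from 63.8% to 47.5% in ileum on day 4, and from 47.8% to 66.2% between colon and ileum on day 8.

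**Figure D1:**
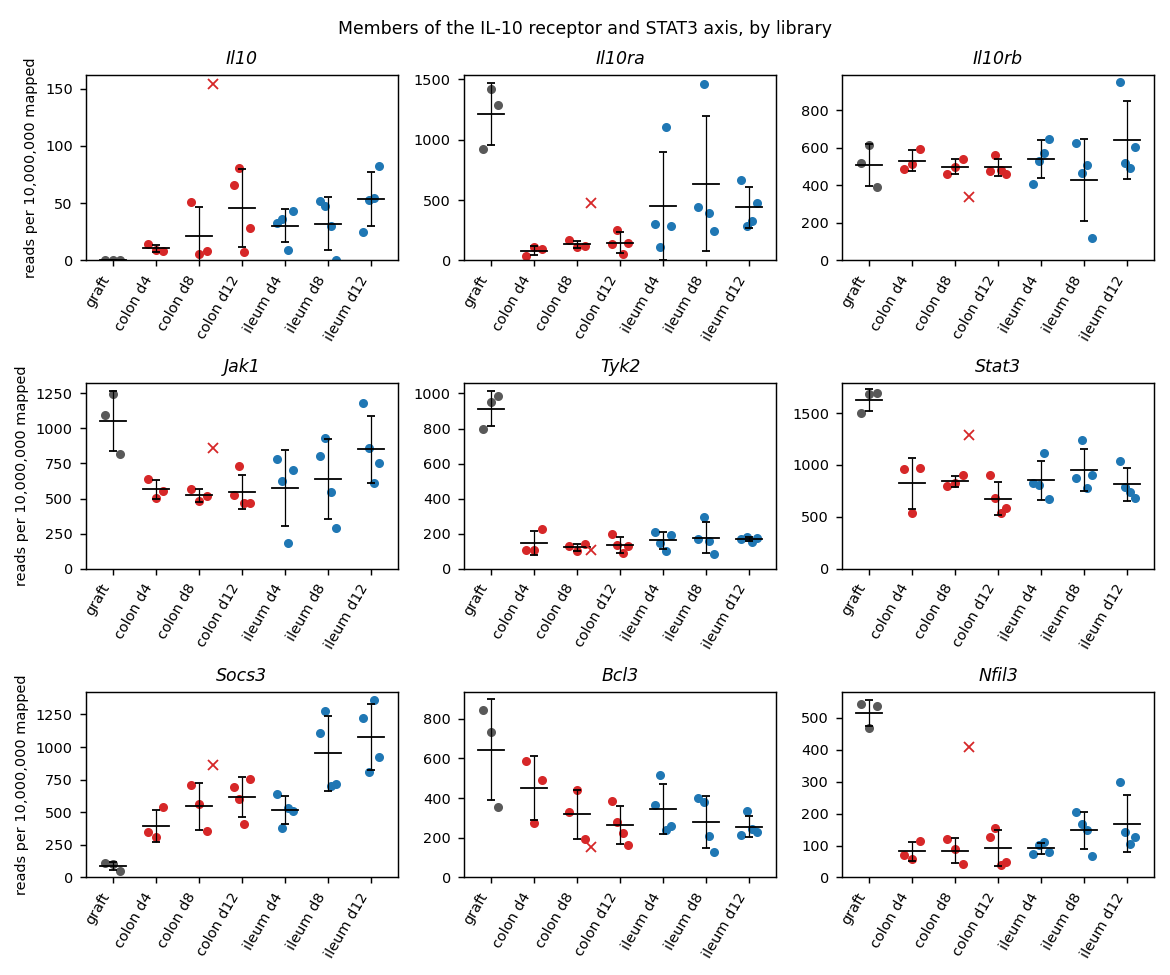
Reads per 10000000 mapped reads of the 9 members (linear axes from 0) in the graft (grey), colon (red) and ileum (blue) by day (d). Dots are libraries, black lines the mean ± SD, and the cross is colon day 8 replicate 1, left out of the means. Tyk2 lay between 800.0 and 986 in the graft and no higher than 297 in any engrafted library, whereas Socs3 lay no higher than 109.5 in the graft and no lower than 308 elsewhere.

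Il10, the ligand, was not detected in the graft, with 0 reads in all 3 libraries, which allows up to 5.81 to 8.42 normalized reads at the floor of 3 counts. Such floors cover counting error only. In colon it stood at 14.3, 8.89 and 8.13 on day 4, at 50.7, 5.22 and 8.19 on day 8, and at 66.2, 81.0, 7.31 and 28.0 on day 12. In ileum it stood at 33.0, 36.3, 9.22 and 42.8 on day 4, at 51.5, 47.2, 30.12 and 0 on day 8, and at 24.9, 52.6, 54.6 and 82.8 on day 12. Every engrafted CD11c-DTR library but 1 thus held reads of Il10, yet few of them, between 1 and 56 reads a library. The ratio of its mean level to the mean floor of the graft was 1.46 in colon on day 4 and 6.37 on day 12, and 4.23 and 7.5 in ileum. These ratios leave out the counting error of the engrafted libraries and are no strict lower bounds. In colon on day 4 the lowest library, at 8.13, lay below the highest floor of the graft, 8.42. It was called higher than the graft in all 6 groups (adjusted p = 9.27e-05 to 0.0116 with edgeR). No library of day 4 reached the 50 normalized reads of the filter, so that Il10 was tested there only through the other groups, and with the compared groups alone it was tested against the graft on ileum day 12 only (0.000523). Its calls are therefore counted among the members as a description only. Its differences between colon and ileum were not called (adjusted p = 0.289 on day 4, 0.373 on day 8 and 0.61 on day 12). With an equal-variance test per gene the call was lost in colon on days 8 and 12 and in ileum on day 8 (adjusted p = 0.221, 0.0685 and 0.102). In the CX3CR1-DTR colon no library held more than 3 reads of Il10 and 4 held none, so that it lay at or below the floor of 3 counts and entered no test there. Some CD11c-DTR libraries, with as few as 1 read, lay there too, so no contrast between the recipients is read from this.

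Il10ra, the chain that binds IL-10, fell most steeply among the members in colon. The graft held 926, 1418 and 1288 normalized reads. In colon these were 35.8, 109.7 and 93.5 on day 4, 165, 115 and 116 on day 8, and 140.1, 255, 51.2 and 145 on day 12, all below the graft. Ileal libraries spread far more widely, with 304, 109, 1106 and 285 on day 4, 445, 1463, 392 and 245 on day 8, and 663, 286, 330.2 and 476 on day 12. On days 4 and 8 a single ileal library each, replicate 3 and replicate 2, thus reached the level of the graft, and on day 12 none did. The day 4 libraries also split by experiment. Replicates 2 and 3, of experiment 1, had epithelial sums of 216780.0 and 226810.0 and T cell sums of 72.2 and 84.5, against 60492 and 67376 and 1270 and 657 in replicates 1 and 4, of experiment 2, and the part of this in the spread of Il10ra was not tested. The fold change from the graft to colon was -3.59 ± 0.73 on day 4, -2.96 ± 0.70 on day 8 and -2.73 ± 0.62 on day 12 (adjusted p = 0.000194, 0.000934 and 0.000579), a 12.05-fold fall on day 4 and a 6.65-fold fall on day 12, with every library below the graft's mean. From the graft to ileum it was -0.99 ± 0.61, -0.47 ± 0.60 and -0.95 ± 0.60 (adjusted p = 0.175, 0.527 and 0.179). The call depended on the fit. On day 4 it was made with library totals (adjusted p = 0.0375) and with the day 4 libraries of experiment 2 alone (0.0295). On day 12, where no ileal library overlapped the graft, it was made with library totals (0.0367), the compared groups alone (0.0478) and the equal-variance test (0.0178). Without ileum day 4 replicate 3 the change to ileum on day 4 was -2.02 and was called (adjusted p = 0.00411).

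Between colon and ileum, 1, 3 and 4 of 9 members were called on days 4, 8 and 12, all lower in colon, where 3.18%, 35.0% and 32.5% of all genes were called and 2.66%, 18.3% and 17.2% were called lower. Il10ra was lower in colon by 6.07-fold on day 4, 5.59-fold on day 8 and 3.43-fold on day 12 (log2 -2.60 ± 0.70, -2.48 ± 0.67 and -1.78 ± 0.59, with adjusted p = 0.0453, 0.00691 and 0.0237). On days 8 and 12 the libraries of the segments did not overlap, and on day 4 one ileal library, replicate 2 with 109, lay among the colonic ones. The call of day 4 was fragile. It was lost in 6 of the 7 fits that left out 1 of its libraries, and leaving out ileum day 4 replicate 3 brought the difference to -1.57 (adjusted p = 0.113). On day 8 the difference was -1.81 without ileum day 8 replicate 2 (adjusted p = 0.0352), and with the further colon day 8 library it was no longer called (adjusted p = 0.0781). The call of day 12 was lost in 4 of the 8 fits that left out 1 library, where the adjusted p reached 0.0826 and the difference lay between -2.15 and -1.48. Pan-leukocyte genes moved with this difference, since 4, 9 and 10 of 10 were called lower in colon than ileum on days 4, 8 and 12, with medians of -1.96, -2.20 and -2.31.

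Il10ra was therefore also set against the leukocyte reads of its own library. Such a ratio rises for any gene whose reads fall less than the leukocyte sum, which was lower in all engrafted groups. The median of that sum was also lower in colon than ileum on each day. Between the segments the ratio thus rises in colon for any gene that differs less than the sum. An order of the segments that turned on this measure is therefore not read as a result for any member. Per 1000 reads of the pan-leukocyte list, it stood at 9.39 to 13.3 in the graft. It stood at 17.0 to 25.2, 22.3 to 49.8 and 20.5 to 46.8 in colon on days 4, 8 and 12, and at 13.5 to 95.0, 19.2 to 54.1 and 16.04 to 33.0 in ileum. On this measure no engrafted group overlapped the graft, every one lay above it, and colon and ileum overlapped on each day. Per 1000 reads of the macrophage list, a denominator added after seeing the data, the order turned. The graft stood at 12.3 to 19.8 and the engrafted groups between 5.13 and 27.9, with group means below that of the graft in all of them. Colon day 4 (8.05 to 9.75) and ileum day 12 (5.13 to 11.5) lay wholly below the graft, and the other groups overlapped it. The steep fall of Il10ra among all reads was thus not found relative to leukocyte reads, and whether it lay above or below the graft there depended on the list.

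**Figure D2:**
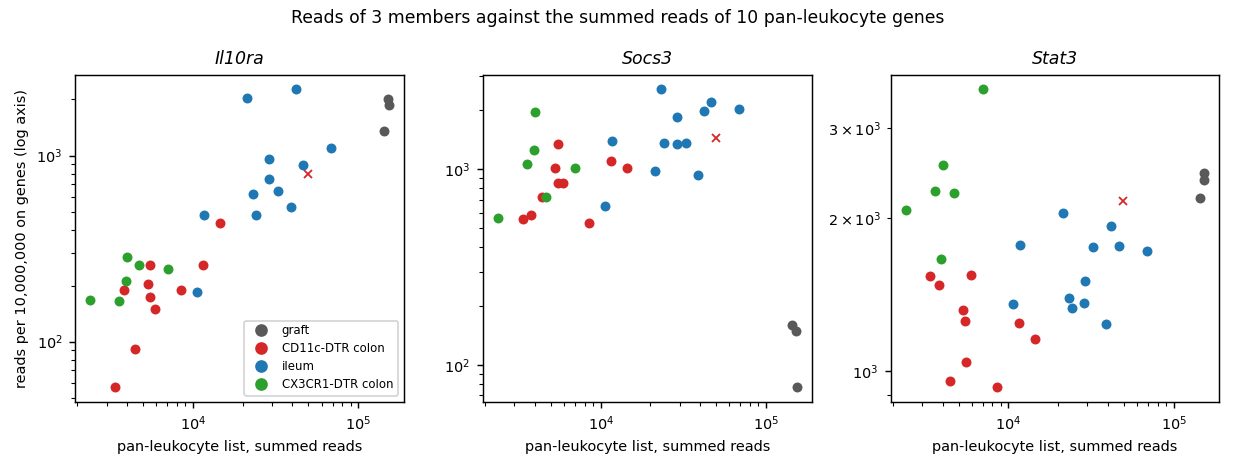
Reads per 10000000 reads on genes of Il10ra, Socs3 and Stat3 (y, log axis) against the summed reads of the 10 pan-leukocyte genes on the same scale (x, log axis), 1 point per library, with the graft in grey, CD11c-DTR colon in red, ileum in blue and CX3CR1-DTR colon in green. The cross is colon day 8 replicate 1. Il10ra followed the leukocyte sum over the 25 graft, colon and ileum libraries of the fit (Pearson r = 0.89). Socs3 followed it among the 22 engrafted ones (r = 0.69), with the graft apart at the lower right. Both r were computed on log2 reads per 10000000 mapped reads, a scale other than that plotted, and without the CX3CR1-DTR libraries.

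Across libraries, the genes whose pattern was most like that of Il10ra were Pik3cd, Laptm5 and Slc43a2, each with a Pearson r of 0.95 over 25 libraries, of which Laptm5 stands on the pan-leukocyte list. As a description, log2 levels of Il10ra had r = 0.89 with the pan-leukocyte sum and r = -0.71 with the epithelial sum over the 25 libraries, which share scaling and a graft far apart. Over the 22 engrafted libraries alone these were 0.85 and -0.66. With the B cell and T cell sums r was 0.79 and 0.6 over these 22 libraries.

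Il10rb, the shared second chain, differed little between groups among all reads. It held 516, 612 and 389.9 in the graft, 459 to 594 over the 10 colonic libraries, and 119 to 949 over the 12 ileal ones, where the lowest was ileum day 8 replicate 4 and the highest ileum day 12 replicate 1. The groups overlapped in every comparison. Only on ileum day 12 was Il10rb called, at 0.84 ± 0.32 above the graft (adjusted p = 0.0279, 3 of 4 libraries above the graft's mean). That call was lost without ileum day 12 replicate 1 (0.56, adjusted p = 0.134), without graft replicates 1 or 3, with library totals (0.386), with an equal-variance test (0.399) and with no filter (0.0504). Set against 1000 pan-leukocyte reads, it lay above the graft with no overlap, at 61.8 to 232 in colon and 17.2 to 84.9 in ileum against 3.70 to 5.73, and colon and ileum did not overlap on any day. Among all reads, the 2 receptor chains thus parted in colon, where Il10ra fell and Il10rb was not called.

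Of the kinases, Tyk2 fell in all engrafted groups and Jak1 in none of the CD11c-DTR groups by the test. Tyk2 held 800.0, 953 and 986 in the graft. It held 107.5, 109.7 and 228 in colon on day 4, 88.9 to 197 on days 8 and 12, and 85.0 to 297 over the 12 ileal libraries. No engrafted library came near the graft. The fold changes were -2.29 ± 0.31, -2.61 ± 0.31 and -2.42 ± 0.28 in colon and -2.05 ± 0.29, -1.87 ± 0.28 and -1.93 ± 0.28 in ileum on days 4, 8 and 12, and the highest of the 6 adjusted p was 6.04e-06. The segments did not differ by the test (adjusted p = 0.689, 0.0516 and 0.167), although without ileum day 8 replicate 4 the difference of day 8 was called at -0.91 (adjusted p = 0.0219). Per 1000 pan-leukocyte reads Tyk2 lay above the graft in colon (15.7 to 61.3 against 8.11 to 9.34) and overlapped it in ileum. Against the macrophage list it overlapped the graft in colon and on ileum day 4. On ileum days 8 and 12 it lay below the graft there without overlap (log2 -1.82 and -1.68).

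Jak1 held 1098, 1240.0 and 816 in the graft, 469 to 729 in colon and 184 to 1177 in ileum, the lowest being ileum day 4 replicate 3. Colonic libraries all lay below the graft, but the fold changes of -0.56 ± 0.34, -0.75 ± 0.34 and -0.59 ± 0.32 were not called (adjusted p = 0.163, 0.0644 and 0.11). They were called in colon on each day with library totals (adjusted p = 0.0484, 0.0286 and 0.0242). The compared groups alone (0.0392, 0.0077 and 0.0294) and the equal-variance test (0.0253, 0.0154 and 0.0198) did so too. On day 8 they were also called with DESeq2 (0.0484) and the experiment as a replicate block (0.0305). With the ileum day 4 libraries of experiment 2 alone they were called on days 8 and 12 (0.0233 and 0.0472). No fit that left out 1 library called any of them. On day 12 Jak1 was lower in colon than ileum by 1.71-fold (log2 -0.78 ± 0.30, adjusted p = 0.049), with all 4 colonic libraries below the ileal mean and the ranges overlapping. This call was lost in 6 of the 8 fits that left out 1 of its libraries, where the adjusted p reached 0.205. Relative to 1000 pan-leukocyte reads the order turned, with 85.2 to 188 in colon and 28.5 to 59.4 in ileum on that day, and the segments did not overlap on any day.

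Stat3, the transcription factor that the receptor activates, was lower in colon than in the graft among all reads, and its level says nothing of its phosphorylation. It held 1502, 1678 and 1688 in the graft, 964, 539.6 and 969.97 in colon on day 4, 800.3, 829.9 and 902 on day 8, and 901, 682, 536 and 587 on day 12. Ileal libraries lay between 670.4 and 1244. All 22 engrafted libraries were below all 3 of the graft. In colon the fall was called on each day (-0.66 ± 0.25, -0.69 ± 0.25 and -0.94 ± 0.23, with adjusted p = 0.0255, 0.021 and 0.00113), and in ileum on none (-0.48 ± 0.23, -0.22 ± 0.23 and -0.52 ± 0.23, with adjusted p = 0.0836, 0.452 and 0.0597). The difference between the segments was itself not called on any day (adjusted p = 0.705, 0.124 and 0.144). Small folds of this size moved with the fit. The call of colon day 4 was lost with the experiment as a replicate block (adjusted p = 0.056), that of day 8 with all 26 libraries (0.255), and each also in 3 fits that left out 1 library, where the adjusted p reached 0.139 for day 4 and 0.0684 for day 8. With library totals, Stat3 was called lower in ileum as well (adjusted p = 0.00207, 0.00825 and 0.00105). Relative to leukocyte reads the direction turned in both segments. Per 1000 pan-leukocyte reads Stat3 stood at 79.8 to 457 in colon and 25.1 to 150.5 in ileum, against 15.22 to 15.998 in the graft. Against the macrophage list it also lay above the graft in colon, by 1.46 to 2.46 on the log2 scale, with no overlap on either list. The macrophage sum in colon was itself lower than in the graft. In ileum the macrophage list gave 0.72, 0.11 and -0.35 on days 4, 8 and 12, with ranges that overlapped the graft.

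**Figure D3:**
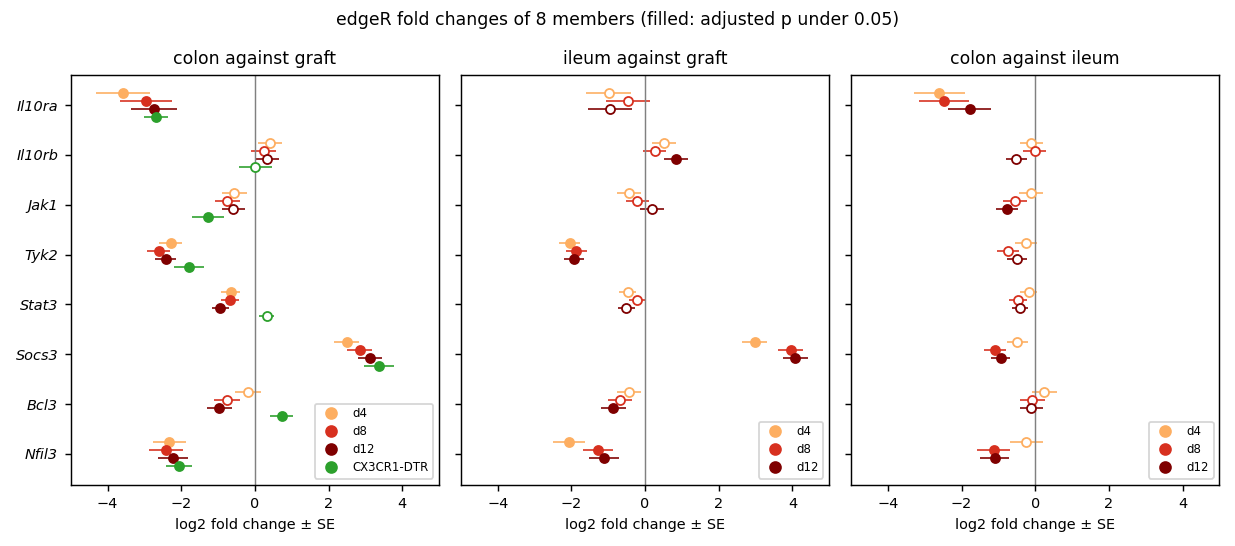
Log2 fold changes from edgeR (x, dots, with the standard error as bars) of the 8 members tested in both fits, for colon and ileum against the graft and for colon against ileum, by day (d4, d8 and d12 in orange, red and dark red) and for the CX3CR1-DTR colon (green). Filled dots had an adjusted p below 0.05. Tyk2, Nfil3 and Socs3 were called against the graft in every group, Il10ra in colon alone (from -3.59 to -2.69), and no member was called higher in colon than ileum.

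Socs3, the feedback inhibitor that STAT3 induces, rose more than any member with reads in the graft. It held 109.5, 104.6 and 53.3 there. In colon it held 348, 308 and 537 on day 4, 713, 564 and 358 on day 8, and 691, 601, 407 and 759 on day 12, and in ileum 641, 382, 534.5 and 506 on day 4, 1106, 1278, 703 and 717 on day 8, and 1220.3, 812, 1360 and 924 on day 12. Every engrafted library lay above the graft. The fold changes were 2.49 ± 0.33, 2.85 ± 0.34 and 3.13 ± 0.33 in colon (adjusted p = 1.04e-06, 1.66e-07 and 2.58e-08) and 2.98 ± 0.33, 3.95 ± 0.34 and 4.08 ± 0.34 in ileum (adjusted p = 8.02e-08, 2.27e-09 and 1.4e-09), which is 5.62-fold to 8.77-fold and 7.86-fold to 16.9-fold. All 6 calls held in each alternative fit run, where the highest adjusted p was 0.0117.

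Among all reads, Socs3 was called different between the segments on days 8 and 12. It was 2.14-fold lower in colon than ileum on day 8 and 1.92-fold lower on day 12 (log2 -1.10 ± 0.29 and -0.94 ± 0.26, with adjusted p = 0.00624 and 0.00896), whereas on day 4 it was not called (-0.48 ± 0.29, adjusted p = 0.347). The libraries did not overlap on day 12 and overlapped in 1 pair on day 8. The call of day 8 was lost without colon day 8 replicate 4 (adjusted p = 0.0531) and with all 26 libraries (0.0701). With the equal-variance test the calls of both days were lost (0.172 and 0.0734). On the scale of 1000 pan-leukocyte reads the order turned, with 62.5 to 165 in colon and 23.97 to 61.0 in ileum on day 4, which did not overlap, 95.9 to 155 and 46.7 to 119.4 on day 8, and 70.3 to 245 and 29.5 to 110.5 on day 12, which overlapped. Within ileum, Socs3 rose from day 4 to day 12 by 2.15-fold (1.10 ± 0.27, adjusted p = 0.0341, all 4 libraries above), and it was the only member of 9 called in that comparison, where 2.3% of all genes were. That call held with DESeq2 (adjusted p = 0.00479), and was lost with the experiment as a replicate block (0.122), with the ileum day 4 libraries of experiment 2 alone (0.993) and in 5 of the 8 fits that left out 1 library, where the adjusted p reached 0.247. In colon from day 4 to day 12 no member was called and neither was any of 11842 genes by edgeR, of which 245 genes and 3 members (Il10, Socs3 and Bcl3) had an unadjusted p below 0.05, and DESeq2 called 1 gene. The change from day 4 to day 12 likewise differed between the segments for no gene (739 genes and 0 members at an unadjusted p below 0.05, and 16 genes called by DESeq2).

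The ratio of Socs3 to leukocyte reads rose by more still, but that sum was itself lower in all engrafted groups. On this list the group means of every member with reads in the graft lay above the graft. The larger size is therefore not read as a rise per leukocyte. Per 1000 pan-leukocyte reads Socs3 rose from 0.505 to 1.11 in the graft to between 23.97 and 245 in the CD11c-DTR groups. Per 1000 macrophage list reads its ratio of means to the graft was 4.12 to 5.54 there on the log2 scale. The group means of Il10rb also lay above the graft on both lists (0.25 to 5.15 over all groups). On the macrophage list the ranges of Il10rb overlapped the graft on ileum day 8 and in CX3CR1-DTR colon. The macrophage sum was likewise lower in colon than in the graft, so a shared direction there is not taken as separate support. Among the 22 engrafted libraries the log2 level of Socs3 had r = 0.69 with the pan-leukocyte sum and -0.69 with the epithelial sum, as a description. With the B cell and T cell sums r was 0.76 and 0.64. Its closest genes over the 25 libraries were Adamdec1, C1qb and Mmp2 (r = 0.94, 0.92 and 0.92), of which C1qb stands on the macrophage list.

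STAT3 binds palindromic sites of the letters TTCNNNGAA, and the windows of 250 bases upstream of the start in the RefSeq promoter table (build GRCm38.p6) were searched for it. The table held 6 of the 9 members, and 1 of them, Socs3, contained the motif, as did 7.02% of the 32851 windows. The motif reads the same on both strands. The Socs3 window (chr11:117969367-117969616, minus strand) holds it once, starting 154 bases before the start of the gene. It is shown, with the match in capitals, beside the window of Nfil3 (chr13:52981040-52981289, minus strand), the target that fell, which holds no match.
Socs3: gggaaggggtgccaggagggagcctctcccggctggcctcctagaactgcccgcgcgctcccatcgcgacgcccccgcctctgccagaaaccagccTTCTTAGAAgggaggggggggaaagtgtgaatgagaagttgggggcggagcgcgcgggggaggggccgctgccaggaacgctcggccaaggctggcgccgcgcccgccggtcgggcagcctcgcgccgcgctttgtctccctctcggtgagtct
Nfil3: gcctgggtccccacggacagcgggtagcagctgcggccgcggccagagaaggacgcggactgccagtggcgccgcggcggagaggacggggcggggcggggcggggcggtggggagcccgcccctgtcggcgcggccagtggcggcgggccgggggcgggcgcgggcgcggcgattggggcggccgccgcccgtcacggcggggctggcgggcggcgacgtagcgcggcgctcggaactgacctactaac
A match of letters is a description and not a site of binding, and the counts were assigned by gene, on mm9, where Socs3 spans positions 117827401 to 117830680 of chromosome 11 on the minus strand.

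Nfil3, a bZIP transcription factor that IL-10 induces in macrophages, went the opposite way to Socs3. It held 542, 469 and 535 in the graft, 59.3 to 113.9 in colon on day 4, 42.1 to 121.6 on day 8 and 37.8 to 156 on day 12, and 72.6 to 110.6, 68.0 to 206 and 104.0 to 299 in ileum. No library of the fit overlapped the graft. The fold changes were -2.32 ± 0.46, -2.42 ± 0.46 and -2.22 ± 0.41 in colon (adjusted p = 0.000139, 9.98e-05 and 6.33e-05) and -2.08 ± 0.43, -1.29 ± 0.41 and -1.11 ± 0.40 in ileum (adjusted p = 0.000271, 0.0101 and 0.0213). It was 2.19-fold lower in colon than ileum on day 8 and 2.15-fold lower on day 12 (adjusted p = 0.0496 and 0.0342). Counted per 1000 pan-leukocyte reads it was instead higher in colon with no overlap, at 16.4 to 24.4 against 6.23 to 11.3 on day 8 and 15.2 to 34.8 against 7.23 to 9.90 on day 12. Both calls between segments were weak. That of day 8 was lost in 5 of the 7 fits that left out 1 library and with the experiment as a replicate block (adjusted p = 0.0559). Library totals (0.16), no filter (0.0701) and the equal-variance test (0.325) lost it too. It turned to a difference of 0.01 with all 26 libraries (0.995), since colon day 8 replicate 1 held 409 reads. That of day 12 was lost without ileum day 12 replicate 1 (-0.62, adjusted p = 0.243) and without colon day 12 replicates 3 or 4. It was also lost with library totals (0.107), the compared groups alone (0.0904), the equal-variance test (0.293) and all 26 libraries (0.131). The call in ileum on day 12 against the graft was lost without graft replicate 3 or ileum day 12 replicates 2, 3 or 4, where the adjusted p reached 0.0722. With all 26 libraries the calls against the graft were lost in colon on day 8 (0.0579) and in ileum on days 8 and 12 (0.0575 and 0.0927). Per 1000 pan-leukocyte reads Nfil3 was not below the graft in colon (12.03 to 34.8 against 4.39 to 5.49), and over the 25 libraries its log2 level had r = 0.88 with that sum. Gmfg and Creg1 were among the genes with the most similar pattern (r = 0.94 and 0.93).

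Bcl3, a nuclear IκB protein that limits NF-κB targets, was called lower than in the graft on day 12 alone. It held 842, 730.5 and 356 in the graft, 273 to 584 in colon on day 4, 192 to 438 on day 8 and 165 to 387 on day 12, and 239.6 to 514.5, 129 to 399 and 213 to 335 in ileum. Graft replicate 3 lay within the range of every engrafted group but ileum day 12, the only group that did not overlap the graft. Bcl3 was called lower on day 12 in colon (-0.96 ± 0.33, adjusted p = 0.0135) and in ileum (-0.86 ± 0.33, adjusted p = 0.0299). The folds of day 8 were close to these (-0.76 and -0.68, adjusted p = 0.0675 and 0.0867) and were called with library totals (0.0414 and 0.0107). No change from day 4 to day 12 was called. Per 1000 pan-leukocyte reads Bcl3 lay above the graft on average in every group, by 1.36 to 5.69 on the log2 scale. Without graft replicate 1 both calls were lost (adjusted p = 0.0596 and 0.118), and that in ileum also without 4 other libraries. The segments did not differ by the test on any day (adjusted p = 0.719, 0.876 and 0.836).

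Taking the targets side by side among all reads, the genes that STAT3 induces did not move as one, since Socs3 was called higher and Nfil3 lower in the same 6 groups, and Bcl3 lower in 2. Relative to pan-leukocyte reads the group means of all 3 lay above the graft, with Nfil3 at 0.78 to 2.88, Bcl3 at 1.36 to 5.69 and Socs3 at 5.64 to 8.31 on the log2 scale. Those of every other member with reads in the graft did so too, beside the lower leukocyte sum. The shared direction on this list is thus not particular to the targets, and nothing on their movement is read from it. Relative to macrophage list reads Nfil3 lay at -1.23 to 0.63 and Bcl3 at -0.61 to 3.09. With that list the opposite movement of Socs3 and Nfil3 thus depended on the group.

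**Figure D4:**
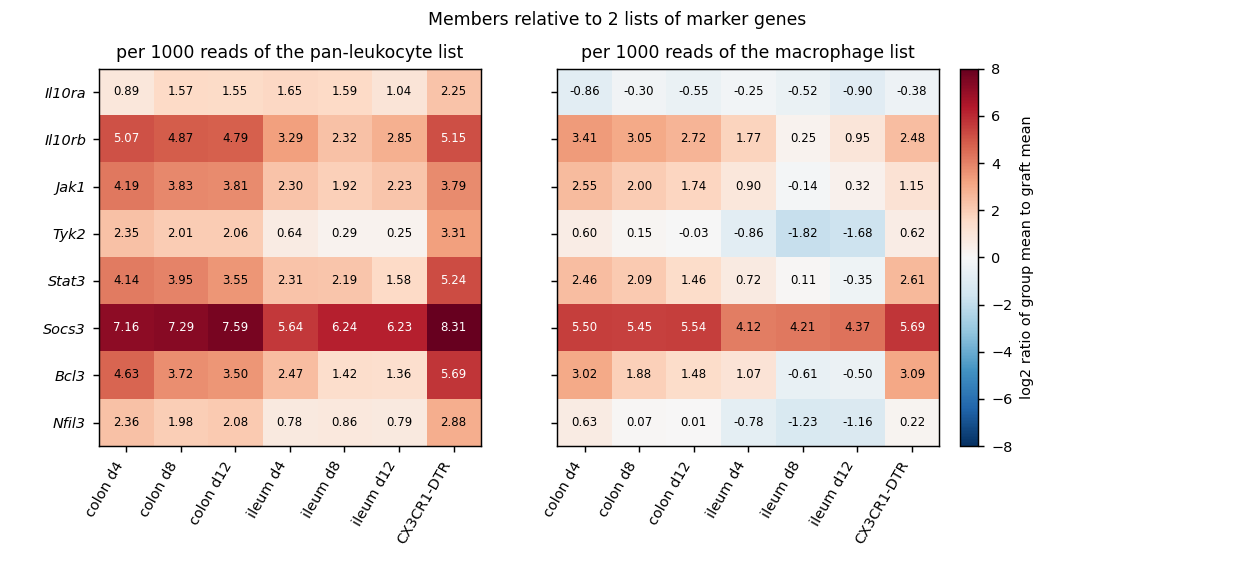
Log2 ratio of the group mean to the graft mean of 8 members, per 1000 reads of the pan-leukocyte list (left) and of the macrophage list (right), with colour and number giving the same ratio, by group (d is day). Il10ra lay above the graft on the left (0.89 to 2.25) and below it on the right (-0.90 to -0.25), whereas Socs3 lay above it on both (at least 4.12).

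The CX3CR1-DTR colon offered a second recipient strain. For these 6 libraries, and what is set against them, levels are reads per 10000000 reads on genes, and a second fit covered the graft, colon day 12 and these libraries over 11718 genes. Replicate 1 stood apart, with a median correlation of 0.775 with the others of its group (0.944 to 0.966 among the rest), and values without it are given where they differ. Against the graft, 6 of 8 members tested were called, where 75.5% of all genes were. Il10ra fell to 165.2 to 285.5 (median 228) from 1348 to 2011 in the graft (-2.69 ± 0.33, adjusted p = 4.08e-06, 6 of 6 libraries). Socs3 rose to 564 to 1972 (median 1045) from 77.5 to 159 (3.37 ± 0.41, adjusted p = 3.63e-06). Neither overlapped the graft, as in the CD11c-DTR colon, with which the graft libraries are shared. Tyk2 at 32.7 to 416 (-1.78 ± 0.41, adjusted p = 0.00116) and Nfil3 at 92.5 to 237 (-2.07 ± 0.35, adjusted p = 9.12e-05) were also called lower. Jak1 was called lower too (-1.28 ± 0.44, adjusted p = 0.016), with 49.0 in replicate 1 and 549.7 to 718 in the others, against 1187 to 1759 in the graft, a call lost without graft replicate 2 (adjusted p = 0.0592).

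Against the CD11c-DTR colon of day 12, Stat3 and Bcl3 were the members called, where 60.7% of all genes were. Stat3 stood at 1662 to 3579 (median 2249) against 956, 1043, 1158 and 1319, with no overlap (1.07 ± 0.19, adjusted p = 0.00025, a 2.10-fold difference). Bcl3 stood at 913 to 1732 (median 1293) against 293, 399.6, 470.4 and 567, again with no overlap (1.52 ± 0.29, adjusted p = 0.000341, a 2.87-fold difference). Both calls held in every alternative fit run (highest adjusted p 0.0024 and 0.00195). Bcl3 thus lay above the graft here (0.73 ± 0.30, adjusted p = 0.0421), a call lost without CX3CR1-DTR replicate 1 (0.0791), without 5 other libraries one at a time and with DESeq2 (0.068). Il10ra, Socs3 and Nfil3 were not called between the recipients (-0.15 ± 0.33, 0.06 ± 0.31 and -0.04 ± 0.35, with adjusted p = 0.712, 0.872 and 0.935). Without replicate 1, which held 32.7 reads of Tyk2 and 73.5 of Il10rb, 4 members were called, with Tyk2 higher (0.70, adjusted p = 0.00452) and Jak1 lower (-0.60, adjusted p = 0.00718) in addition.

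Other genes around the axis were counted from 6 lists. For comparison, 35.9% of all genes tested were called higher and 24.5% lower in colon on day 4, and 36.2% and 20.5% in ileum, while on day 12 these were 37.7% and 24.9% in colon and 35.9% and 20.0% in ileum. Nothing particular to a list is read from its counts. Of the STAT3-coupled receptors of other cytokines, 10 of 12 found were tested, and 4 were called higher and 3 lower in colon on day 4, against 5 higher and 2 lower in ileum. Il6ra, the IL-6 receptor chain, fell from 2932 ± 368 in the graft to 115 ± 43.4 in colon and 217 ± 97.8 in ileum on day 4 (mean ± SD). Csf3r, the G-CSF receptor, fell from 826 ± 201 to 11.1 ± 8.0 and 76.2 ± 33.4. Il22ra1, the IL-22 receptor chain known from epithelium, and Osmr, the oncostatin M receptor, were listed at 0 in the graft and stood at 187 ± 32.1 and 27.4 ± 18.0 in colon and at 199 ± 90.1 and 62.8 ± 51.5 in ileum. These 4 were named for their low p among the 10 tested, and no pattern by cell type is read from them. Of the IL-10 cytokine family and its other receptors, 6 of 7 did not pass the filter. The seventh, Il22ra2, which encodes the soluble IL-22 binding protein, stood at 2.4 or less in the graft and at 44.4 to 3088 in ileum on day 12, where it was higher than in colon (1.95 to 102.3, log2 -4.28 ± 1.23 for colon against ileum, adjusted p = 0.0105).

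Of 8 other JAK and STAT genes, none were called higher and 6 lower in colon on day 4 and on day 12, against 1 higher and 3 lower in ileum on both days. Their median was -1.80 in colon and -0.65 in ileum on day 4. Stat6, which serves IL-4 and IL-13, fell from 1076 ± 93.1 to 273 ± 19.14 in colon and 335 ± 155 in ileum (log2 -1.64 ± 0.25 and -1.27 ± 0.23, with adjusted p = 7.12e-06 and 7.68e-05). Stat5a and Stat5b, which serve GM-CSF and related cytokines, fell in both segments, by -3.08 ± 0.50 and -2.78 ± 0.51 in colon. Between the segments, 5 of the 8 were called lower in colon on day 8 and 6 on day 12, beside 18.3% and 17.2% of all genes.

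Of 12 negative regulators of JAK-STAT signalling tested, 3 were called higher and 6 lower on day 4 in each segment. Socs2, a relative of Socs3, stood at no more than 2.8 in the graft and at 329 ± 109.8 in colon and 472 ± 230.1 in ileum on day 4. Cish, a STAT5 target of the same family, rose from 14.7 ± 0.7 to 125 ± 24.03 and 171 ± 101.0 (3.39 ± 0.49 and 3.94 ± 0.48, with adjusted p = 2.86e-06 and 3.45e-07). The phosphatase gene Ptpn1 fell from 4749.5 ± 559 to 422 ± 127 and 879.7 ± 343, and Pias1 from 797 ± 48.1 to 181 ± 41.6 and 252 ± 59.4. Socs2, Cish, Ptpn1 and Pias1 were named for their low p among the 12 tested, and no pattern by gene family is read from them.

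Of 12 other genes that IL-10 induces in macrophages, 2 were called higher and 5 lower in colon on day 4, against 4 higher and 1 lower in ileum. By day 12 the counts were 2 and 3 in colon and 6 and 0 in ileum, with medians of 0.02 and 0.88. Il1rn, the antagonist of the IL-1 receptor, rose from 56.3 ± 9.3 to 652 ± 34.7 in colon and 538.5 ± 224 in ileum on day 4 (3.87 ± 0.68 and 3.68 ± 0.67, with adjusted p = 3.68e-05 and 5.82e-05), and Ddit4, an inhibitor of mTORC1, from 129 ± 60.5 to 491.5 ± 146 and 317 ± 127. Hmox1, heme oxygenase 1, fell in colon (-3.14 ± 0.61, adjusted p = 0.000106) and was not called in ileum (-1.16 ± 0.52, adjusted p = 0.0632), and Sbno2, a corepressor induced by STAT3, fell in both (-1.44 ± 0.30 and -0.72 ± 0.28, with adjusted p = 0.000232 and 0.028). On days 4, 8 and 12, 1, 3 and 5 of the 12 were called lower in colon than ileum, where 2.66%, 18.3% and 17.2% of all genes were and the pan-leukocyte genes moved the same way.

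Of 6 regulators of Il10 transcription, 4 were called higher in every colonic and ileal group, and 1 lower in colon on each day, where 34.3% to 37.7% of all genes were called higher than in the graft, with medians of 1.51 in colon and 3.56 in ileum on day 4. Bhlhe40, which represses Il10 in lymphocytes, rose from 37.6 ± 22.8 to 741 ± 97.3 and 741 ± 357 (4.63 ± 0.54 and 4.76 ± 0.53, with adjusted p = 1.34e-07 and 9.1e-08). Maf, an activator of Il10 in macrophages, rose from 65.4 ± 20.9 to 126 ± 37.2 in colon and 397 ± 173 in ileum. Prdm1, which encodes Blimp-1, rose from 22.15 ± 16.1 to 62.4 ± 18.6 and 296 ± 148. Ets1, a factor of lymphocytes and endothelium, rose from 14.6 ± 3.0 to 68.7 ± 27.4 and 259 ± 244, beside the T cell sums given above. On day 12 Maf, Prdm1 and Ets1 were each called lower in colon than ileum (-1.73 ± 0.42, -2.41 ± 0.51 and -2.77 ± 0.59, with adjusted p = 0.00346, 0.00133 and 0.00142), and Bhlhe40 was not (-0.07 ± 0.38, adjusted p = 0.914).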

How the data were processed

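The deposited values are counts of reads per gene on exons, made by the authors with HISAT 0.1.6 and HOMER on mm9, on the sense strand and with no normalization. Whether molecular identifiers were collapsed is not given in the sources used here. In the second table, 52 columns without a sample were not used. The members and all gene lists were chosen with earlier results of these data known.

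A gene was tested if 3 or more libraries held 50 or more of its normalized reads, with edgeR 4.0.16 (TMM, quasi-likelihood test, Benjamini-Hochberg adjustment) in R 4.3.3, with a fit over 25 libraries of the graft, colon and ileum and a second over 13 libraries. DESeq2 1.42.0, library totals, no filter, the compared groups alone, an equal-variance test per gene, all 26 libraries, the experiment by date as a replicate block and leaving out each library were alternatives. The fit was tested on simulated data. One read was worth 1.17 to 9.22 normalized reads in the first table. Of the mapped reads, 47.1% to 70.5% fell on genes.

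Colon day 8 replicate 1 was left out because the study describes 3 repeats of that group, which match the other titles. No pair of libraries agreed within sampling noise among 51 checked (smallest chi-square per degree of freedom 4.73). The day of the CX3CR1-DTR libraries was taken from the paper's supplement, since the labels do not give it. Dates in the labels put the libraries of the first table into 3 experiments. Between libraries of different groups, deviations from the group means had a median r of 0.02 within an experiment (-0.48 to 0.52). Between experiments it was -0.01 (-0.45 to 0.4). This does not cover splits by experiment within a group, as seen in ileum on day 4. The experiments entered as an alternative only. Besides the members, up to 4 genes per pathway list were named, those with the lowest p from the graft to day 4, and the 3 genes most correlated with a member on log2(normalized reads + 50). A few genes that these rules select are not reported here.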

Additional observations from a re-analysis of the deposited data

Results flagged for a closer look

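In 54 groups of 4 to 6 libraries, counted over the 9 members, 5 held a library apart from the others, and chance gives about 1 in 20. Il10ra in colon day 8 replicate 1 stood at 476.4 normalized reads, with 115 to 165 in the others of that day. In ileum day 8 replicate 2 it stood at 1463.0, with 245 to 445 in the others. CX3CR1-DTR replicate 1 held 73.54 reads of Il10rb, 49.03 of Jak1 and 32.69 of Tyk2, where the other 5 libraries held at least 597, 549.7 and 272.

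The change from the graft differed between colon and ileum in 8 tests. The difference was -2.60, -2.48 and -1.78 on the log2 scale for Il10ra on days 4, 8 and 12, -1.10 and -0.94 for Socs3 on days 8 and 12, -1.13 and -1.10 for Nfil3 on these days, and -0.78 for Jak1 on day 12, each lower in colon. Pan-leukocyte genes were also lower in colon, and their part in these differences was not tested. Per 1000 pan-leukocyte reads none of these members was lower in colon without overlap on any day, and Jak1 and Nfil3 were higher there without overlap on days 8 and 12. The lower leukocyte sum of colon raises this ratio for any gene that differs less. Il10rb, not called between the segments, was also higher there without overlap on every day. Nothing on these members is read from this ratio.

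The colon day 8 library that was left out held 154.3 normalized reads of Il10 and 865.6 of Socs3, above all 3 graft libraries.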

How the results depend on the processing

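Of 924 alternative fits of 63 member results, 778 kept the direction and the side of the threshold, 101 lost a call, 44 gained one and 1 turned, Nfil3 between colon and ileum on day 8, which was 0.01 with all 26 libraries. With library totals, 7 members in place of 4 were called in ileum on day 4 against the graft. Between colon and ileum on day 4, the 1 call was 0 with library totals, the compared groups alone, the equal-variance test and all 26 libraries. On day 8, 3 calls were 0 with the equal-variance test and 0 with all 26 libraries. On day 12, 4 calls were 2 with library totals, 0 with the equal-variance test and 2 with all 26 libraries. From ileum day 4 to day 12, the 1 call was 0 with library totals, the compared groups alone, the equal-variance test, the replicate block, all 26 libraries and the ileum day 4 libraries of experiment 2 alone. With the replicate block, 5, 7 and 7 members were called in colon against the graft and 2 between the segments on day 8, and no block could be set in the second fit, whose strains share no experiment.

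Leaving out 1 library gave 5 to 6, 5 to 6 and 6 to 7 members called in colon on days 4, 8 and 12, 4 to 6, 4 to 5 and 4 to 5 in ileum, and 0 to 1, 1 to 4 and 1 to 4 between them. It gave 0 to 0 from colon day 4 to day 12 and for the difference of the changes, 0 to 1 from ileum day 4 to day 12, 4 to 6 for CX3CR1-DTR colon against the graft and 2 to 4 against colon day 12, where 4 were called without CX3CR1-DTR replicate 1. Per 1000 macrophage list reads, chosen after seeing the data, the log2 ratio of Il10ra to the graft was -0.86, -0.30, -0.55, -0.25, -0.52, -0.90 and -0.38 in colon, ileum and CX3CR1-DTR colon, in that order, against 0.89 to 2.25 per 1000 pan-leukocyte reads. Causes of these changes were not tested. Il10 rests on 1 to 56 reads a library, so that its level within a segment is poorly resolved at this depth.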

Other observations

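Colon day 8 replicate 1, which entered no comparison of the report except where named, held 335.5 normalized reads of Il10rb, 859 of Jak1, 107.4 of Tyk2, 1288 of Stat3, 154.3 of Bcl3 and 409 of Nfil3. Its pan-leukocyte sum was 49547 and its macrophage sum 159705 reads per 10000000 reads on genes, where the highest of the 10 other colon libraries of the CD11c-DTR recipients stood at 14515 and 43608. Its epithelial sum was 115285, below the 174259 of the lowest of those libraries.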
